A study of Mus musculus with 21 samples.

Results

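Complex I of the mitochondrial respiratory chain was examined through its nuclear-encoded subunit genes in mouse hematopoietic stem cells (HSCs). Genes were taken from the deposited count table when they were annotated as protein coding and their symbol began with Ndufa, Ndufab, Ndufb, Ndufc, Ndufs or Ndufv followed by a number, which leaves out the Ndufaf assembly factors. The rule found 38 genes of 47729 in the table, here called the Nduf genes. Of these, 36 encode complex I subunits, and the other two are Ndufa4, now assigned to cytochrome c oxidase, and its relative Ndufa4l2. Ndufa4l2 had 0 counts in all 21 libraries, which allows at most 0.0964 to 0.190 CPM (counts scaled to a common library size) per library at a floor of 3 counts, so 37 genes were tested.

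The HSCs were sorted from bone marrow as CD48- LSK CD150+ cells and sequenced as 21 SMART-seq2 libraries in 7 groups of 3. The treatment experiment held bortezomib-treated and DMSO-treated mice titled Atg5-/-, with genotype Mx1-Cre; Atgfl/fl, and bortezomib-treated and DMSO-treated wild-type (WT) mice. Bortezomib, an inhibitor of the proteasome, was given at 10 mg/kg and the vehicle as 10% DMSO, both retro-orbitally at 48 h and 24 h before the cells were taken. In the reporter experiment, untreated RFP-EGFP-LC3 mice gave RFP single positive, RFP GFP double positive and RFP GFP double negative HSCs. This transgene tags the autophagosome protein LC3 with a red and a green fluorophore, of which the green is lost in acid compartments. Mx1-Cre is driven by an interferon-responsive promoter and acts in many cell types besides HSCs. How recombination was induced, how many animals stood behind a library, and the animals' age were not given in the sources used here. The p-values below therefore measure the spread between these libraries, which may be partly technical.

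Complex I oxidizes NADH, passes the electrons through iron-sulfur clusters to ubiquinone and pumps protons across the inner mitochondrial membrane. Its matrix arm holds the NADH site and the clusters, and its membrane arm holds the proton pumps, whose core subunits are encoded by mitochondrial DNA. Nuclear genes supply the core subunits of the matrix arm and the accessory subunits that surround and hold together both arms. HSCs at rest are known for low mitochondrial respiration, which increases when they enter the cycle. The 36 subunit genes were grouped by the place of their protein as 7 core subunits of the matrix arm, 9 accessory subunits of the matrix arm, the acyl carrier Ndufab1, 9 accessory subunits of the proximal membrane arm and 10 of the distal membrane arm.

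Promoters are shown for the 4 genes with the smallest p for the difference in bortezomib response between genotypes (Ndufab1, Ndufa11, Ndufc1 and Ndufs3), for Ndufs6, which held matches to 2 different motifs, and for Ndufa10, whose level did not follow the others. Each is the RefSeq promoter on GRCm38.p6, 250 bases before to 50 bases after the annotated start, written 5′ to 3′ on the gene's own strand. Capitals mark exact matches, on either strand, to the palindromic motif of NRF1 (nuclear respiratory factor; its middle base is free), CCGGAAG (ETS factors such as GABP) or AAGATGGC (YY1).
Ndufab1 (chr7:122101799-122102098, minus strand): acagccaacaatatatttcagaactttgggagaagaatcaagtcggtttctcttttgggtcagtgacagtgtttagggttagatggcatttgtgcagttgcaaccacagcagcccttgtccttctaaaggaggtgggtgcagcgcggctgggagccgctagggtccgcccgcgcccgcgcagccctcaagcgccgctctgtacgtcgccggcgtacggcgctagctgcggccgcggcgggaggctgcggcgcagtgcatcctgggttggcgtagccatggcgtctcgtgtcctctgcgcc
Ndufa11 (chr17:56717512-56717811, plus strand): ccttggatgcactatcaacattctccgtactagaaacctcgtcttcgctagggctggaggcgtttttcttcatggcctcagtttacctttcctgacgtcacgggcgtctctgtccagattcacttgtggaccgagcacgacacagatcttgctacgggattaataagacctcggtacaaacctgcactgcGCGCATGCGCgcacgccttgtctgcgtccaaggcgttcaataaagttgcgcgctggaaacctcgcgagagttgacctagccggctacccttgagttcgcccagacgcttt
Ndufc1 (chr3:51408906-51409205, minus strand): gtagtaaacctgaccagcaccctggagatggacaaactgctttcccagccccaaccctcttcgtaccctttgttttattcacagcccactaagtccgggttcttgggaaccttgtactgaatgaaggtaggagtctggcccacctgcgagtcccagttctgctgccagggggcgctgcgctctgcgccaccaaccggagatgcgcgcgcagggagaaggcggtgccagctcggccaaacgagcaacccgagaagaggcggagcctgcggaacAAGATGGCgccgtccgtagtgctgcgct
Ndufs3 (chr2:90904672-90904971, minus strand): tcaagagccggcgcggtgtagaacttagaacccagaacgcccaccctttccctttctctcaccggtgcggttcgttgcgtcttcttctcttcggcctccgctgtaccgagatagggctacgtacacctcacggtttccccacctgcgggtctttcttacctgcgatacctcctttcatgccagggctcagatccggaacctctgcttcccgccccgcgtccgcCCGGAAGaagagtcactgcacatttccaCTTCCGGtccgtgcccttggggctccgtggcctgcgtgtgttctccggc
Ndufs6 (chr13:73328433-73328732, minus strand): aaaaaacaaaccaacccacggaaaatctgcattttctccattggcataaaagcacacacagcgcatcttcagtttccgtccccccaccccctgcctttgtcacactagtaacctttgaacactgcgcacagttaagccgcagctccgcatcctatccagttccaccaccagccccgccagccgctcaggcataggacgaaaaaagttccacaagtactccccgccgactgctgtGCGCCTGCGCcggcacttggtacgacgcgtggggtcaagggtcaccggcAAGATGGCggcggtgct
Ndufa10 (chr1:92473709-92474008, minus strand): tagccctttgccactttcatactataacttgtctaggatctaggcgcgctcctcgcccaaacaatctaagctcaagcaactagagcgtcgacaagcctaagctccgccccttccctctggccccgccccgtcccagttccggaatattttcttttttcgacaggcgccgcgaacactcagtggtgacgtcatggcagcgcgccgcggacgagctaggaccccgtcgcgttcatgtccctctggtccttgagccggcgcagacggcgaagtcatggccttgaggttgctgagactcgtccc
RefSeq promoters were at hand for 33 of the 38 genes, and 17 of them held at least 1 of these 3 motifs. The NRF1 motif stood in 7 (21.2%), against 4.78% of all 27025 mouse promoters of this length and 10.1% of the 10727 promoters of genes tested here. AAGATGGC stood in 7 (21.2%), against 2.88% and 4.51%, and CCGGAAG in 4 (12.1%), against 9.12% and 17.6%. Of 3 further motifs, the cyclic AMP response element TGACGTCA stood in 3 promoters (9.09%, against 1.88% and 3.17%), the antioxidant response element TGACNNNGC in 7 (21.2%, against 12.5% and 15.1%) and the ATF4 motif TGATGNAA in 0 (0%, against 4.06% and 2.2%). No matches of different motifs overlapped. Ndufab1 and Ndufa10 both lacked the 3 motifs in capitals in this window. A match is a run of letters and not a measured binding site.

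Library totals ran from 15005500 to 31481691 counts, and 16095 to 18899 genes were detected per library. Atg5 had 111 ± 27.2 CPM in knockout-labelled (KO) bortezomib and 112 ± 3.77 CPM in KO DMSO libraries, against 103 ± 31.6 CPM in WT bortezomib and 56.5 ± 17.4 CPM in WT DMSO libraries (mean ± SD, n = 3). Counts over the whole gene do not show whether a floxed part was deleted, so the libraries are called KO by their label only. All 10 HSC markers checked (among them Kit, Procr, Hlf and Mecom) were detected in every group, and their summed level was 2509 to 2825 CPM in KO bortezomib, 2787 to 3466 CPM in KO DMSO, 1693 to 2087 CPM in WT bortezomib and 2930 to 3248 CPM in WT DMSO libraries. Cd48, whose protein the sort selected against, had 8.64, 3.57 and 14.4 CPM in KO bortezomib and 13.8, 20.1 and 17.7 CPM in KO DMSO libraries. It had 35.0, 30.2 and 54.3 CPM in WT bortezomib and 11.3, 12.4 and 9.99 CPM in WT DMSO libraries. Every WT bortezomib library thus lay above all others of the experiment in Cd48, whose part in the differences below was not tested. Xist, which is expressed from the inactive X chromosome, made up between 0% and 100% of Xist plus Ddx3y counts in KO bortezomib libraries, at most 0.987% in KO DMSO, 31.8% to 90.3% in WT bortezomib and 59.98% to 99.2% in WT DMSO libraries, so the groups differed in these sex-linked genes. In bulk RNA, fewer cells of a type and less RNA per cell cannot be told apart.

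Together the 37 detected genes summed to 4433, 4594 and 7274 CPM in the 3 KO bortezomib libraries and to 5485, 6796 and 5477 CPM in the KO DMSO libraries. In WT mice they summed to 14320, 13480 and 10950 CPM in bortezomib libraries and to 5962, 5940 and 8737 CPM in DMSO libraries. Every WT bortezomib library thus lay above all other libraries of the experiment, and the KO bortezomib and KO DMSO libraries overlapped. Within a group, most genes were highest or lowest in the same library: WT DMSO 3 was the highest of its group in 34 of 37 genes, KO bortezomib 3 in 34 of 37, and WT bortezomib 3 was the lowest of its group in 32 of 37. These 3 libraries also stood apart from the others on the third principal component of the experiment. The share of protein-coding counts in genes with a transcript under 1000 bases was also highest in WT DMSO 3 and KO bortezomib 3 and lowest in WT bortezomib 3 within their groups, at 11.1%, 12.4% and 15.95% in KO bortezomib, 11.8%, 14.5% and 14.2% in KO DMSO, 19.5%, 19.0% and 18.4% in WT bortezomib and 12.9%, 12.9% and 17.7% in WT DMSO libraries.

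**Figure D1:**
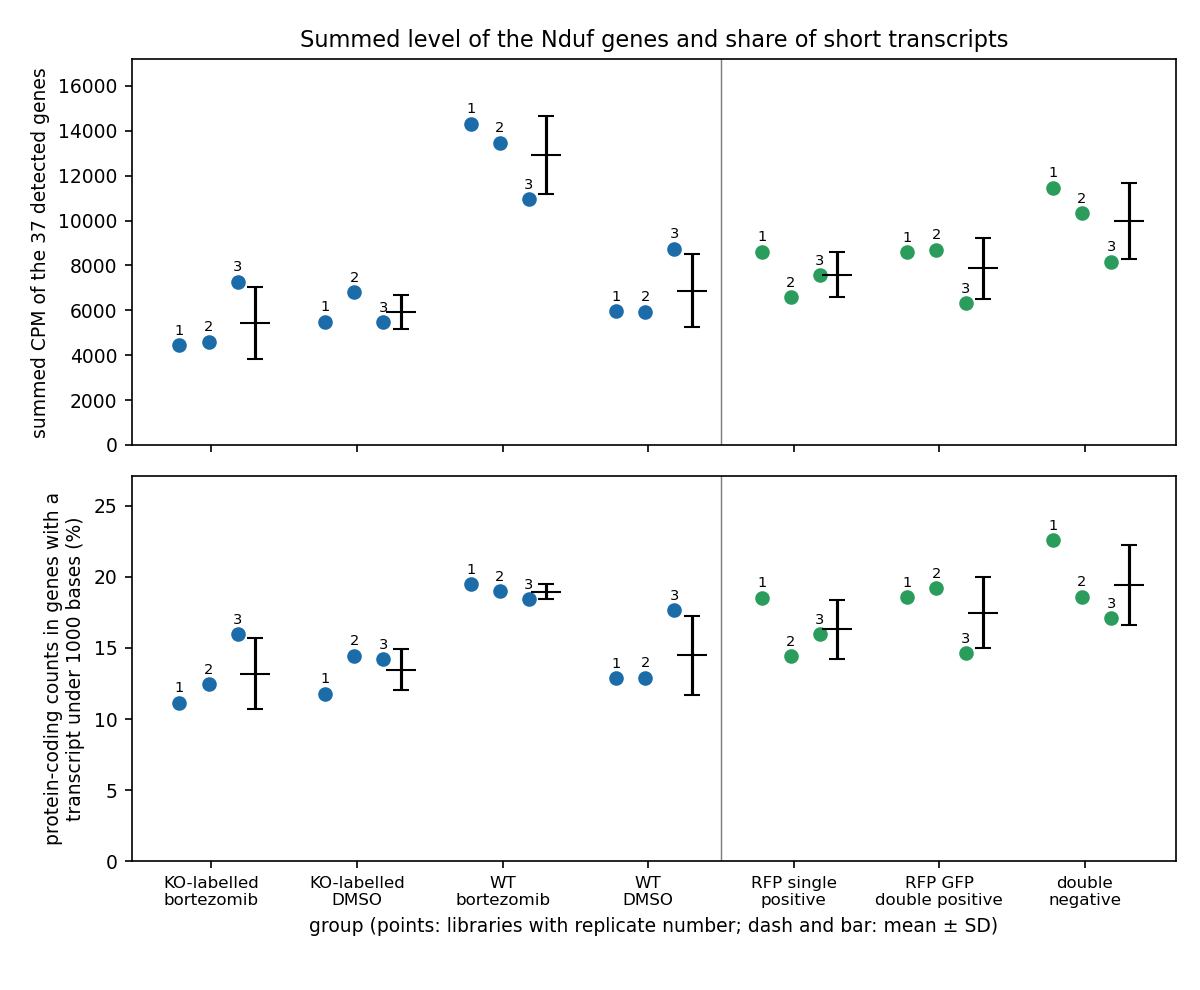
Summed CPM of the 37 detected genes (top) and the percent of protein-coding counts in genes with a transcript under 1000 bases (bottom) in each of the 21 libraries, by group, with mean ± SD (n = 3). WT bortezomib libraries, at 10950 to 14320 CPM, lie above all other treatment libraries in the top panel. Their share of short transcripts, at 18.4% to 19.5%, is also above that of all other treatment libraries. Among reporter libraries that share reaches 22.6% (double negative 1).

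Levels differed widely between the genes, with means in WT DMSO libraries from 28.7 CPM (Ndufs5) to 768 CPM (Ndufa4). Per kilobase of transcript, Ndufa4 stood highest in WT DMSO libraries at 1699 ± 509.5 CPM per kb, followed by Ndufc1 (676 ± 166), Ndufb9 (579 ± 197), Ndufa7 (509 ± 139) and Ndufa3 (438 ± 116; mean ± SD, n = 3). Ndufc1 and Ndufb9 lay within each other's SD, as did Ndufb9 and Ndufa7. At the low end were Ndufa10 (62.1 ± 1.69 CPM per kb), Ndufab1 (55.5 ± 8.21), Ndufs5 (47.9 ± 7.04) and Ndufs1 (41.5 ± 7.22). Ndufab1 encodes the acyl carrier protein of mitochondrial fatty acid synthesis, of which complex I holds a pair of copies, and was among the lowest per kilobase. In WT bortezomib libraries Ndufa4 (3451 ± 812), Ndufc1 (1588 ± 295) and Ndufb9 (1155 ± 110.5 CPM per kb) again led, and Ndufs1 (47.2 ± 9.11) and Ndufa10 (61.7 ± 9.88 CPM per kb) were lowest. Lengths are those of an annotated principal transcript, so a gene whose cells use another isoform would change place.

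The response of WT HSCs to proteasome inhibition was read from WT bortezomib against WT DMSO libraries. Most Nduf genes rose: 30 of 37 (29 of the 36 complex I subunit genes, and Ndufa4) were higher and 0 lower (edgeR quasi-likelihood test, adjusted p under 0.05 over all genes), where 7.97% of all 16149 tested genes were higher, 7.56% lower and 15.5% changed in either direction. Their median log2 fold change was 0.92, against -0.04 for all genes tested. The libraries of both groups did not overlap, with bortezomib higher, for 34 of the 37 genes, against 19.3% of all genes. All 10 subunits of the distal membrane arm rose, as did 6 of 9 of the proximal membrane arm, 7 of 9 accessory subunits of the matrix arm, Ndufab1, Ndufa4, and 5 of 7 core subunits. Medians were 1.02 in the distal membrane arm, 0.94 in the proximal membrane arm, 0.82 in the accessory subunits of the matrix arm and 0.62 in the core subunits.

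**Figure D2:**
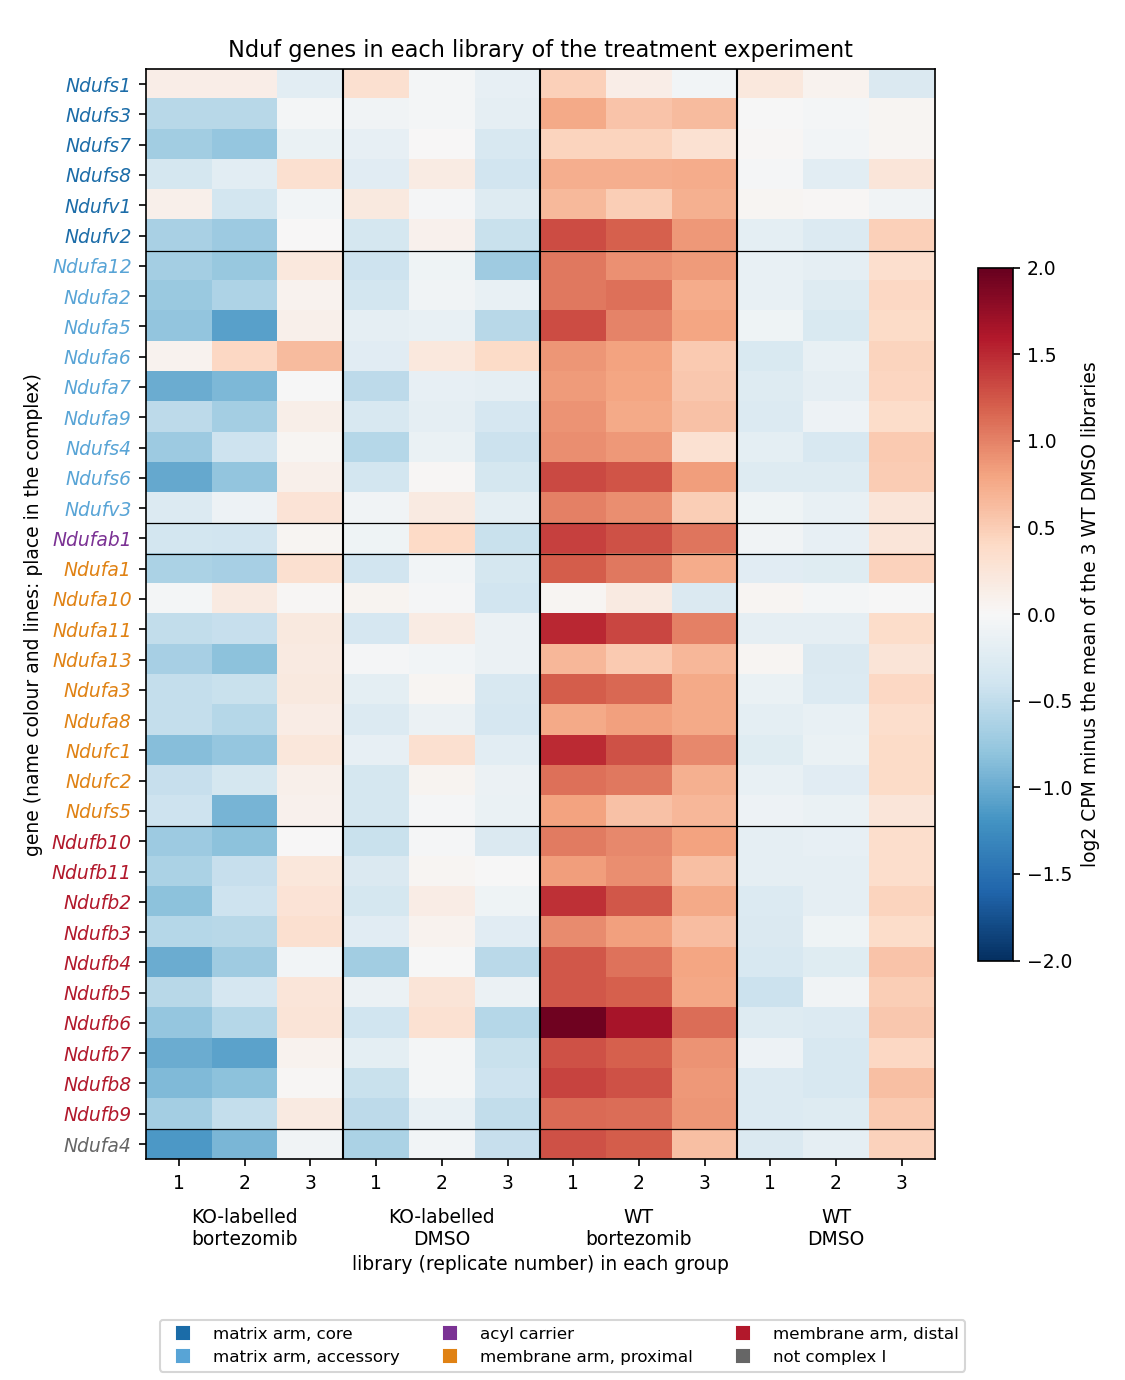
Level of each of 36 of the detected genes (rows, ordered by place in the complex) in the 12 libraries of the treatment experiment (columns), as log2 CPM minus the mean of the 3 WT DMSO libraries. Red fills the WT bortezomib columns in nearly every row, Ndufs1 and Ndufa10 stay pale, and WT DMSO 3 and KO bortezomib 3 are redder than the other libraries of their groups.

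Among the core subunits, Ndufv1 binds the flavin that accepts electrons from NADH. It had 259, 233 and 270.4 CPM in WT bortezomib libraries, against 170.5, 168 and 158 CPM in WT DMSO libraries, and rose (log2 fold change 0.62, SE 0.16, adjusted p = 0.02). Its partner Ndufv2, which carries an iron-sulfur cluster beside the flavin, had 767, 707 and 567 CPM in WT bortezomib, against 270.2, 256 and 432 CPM in WT DMSO libraries. All bortezomib libraries were higher for both genes, and the rise of Ndufv2 was the largest of the core (log2 fold change 1.09, SE 0.24, adjusted p = 0.00926). Ndufs3, a core subunit with no cofactor, had 139, 122 and 127 CPM in WT bortezomib and 81.3, 80.2 and 84.5 CPM in WT DMSO libraries. It rose without overlap between groups (log2 fold change 0.66, SE 0.16, adjusted p = 0.0158). The iron-sulfur subunit Ndufs8 had 332, 334 and 336 CPM in WT bortezomib and 197, 174 and 238 CPM in WT DMSO libraries, and also rose (log2 fold change 0.72, SE 0.20, adjusted p = 0.0231). Ndufs7, which holds the last cluster before ubiquinone, had 251, 252 and 229.9 CPM in WT bortezomib and 188, 178 and 191 CPM in WT DMSO libraries. These groups did not overlap, but the difference missed the threshold (log2 fold change 0.40, SE 0.17, adjusted p = 0.131). Ndufs1, the largest subunit and the carrier of several clusters, had 148, 116 and 102 CPM in WT bortezomib and 124, 112 and 87.0 CPM in WT DMSO libraries. Its groups overlapped (log2 fold change 0.19, SE 0.19, adjusted p = 0.562, 95% interval -0.22 to 0.59), and its interval ended below a 2-fold rise, whereas that of Ndufv2 (0.58 to 1.60) held one.

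The acyl carrier Ndufab1, grouped apart from both arms, gave the smallest p of all 37 genes. It had 200.5, 189.5 and 165 CPM in WT bortezomib libraries and 74.0, 70.0 and 91.9 CPM in WT DMSO libraries (log2 fold change 1.23, SE 0.21, adjusted p = 0.00361), with each bortezomib library well above each DMSO library. Among the accessory subunits of the matrix arm was Ndufs6, which binds zinc. It had 364, 348 and 261 CPM in WT bortezomib and 122, 122 and 207 CPM in WT DMSO libraries (log2 fold change 1.11, SE 0.28, adjusted p = 0.0159). Ndufa5, Ndufa2, Ndufa12, Ndufv3, Ndufa9 and Ndufa6 rose as well, with log2 fold changes between 0.71 (Ndufa6, which docks the acyl carrier) and 1.02 (Ndufa5). Ndufa7 (log2 fold change 0.70, SE 0.25, adjusted p = 0.0655) and Ndufs4 (log2 fold change 0.67, SE 0.25, adjusted p = 0.079) missed the threshold. Ndufs4 had 305, 291 and 198 CPM in WT bortezomib and 139, 128 and 231 CPM in WT DMSO libraries, so WT DMSO 3 overlapped the bortezomib group.

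In the proximal membrane arm, Ndufa11 had 371, 328 and 262 CPM in WT bortezomib libraries and 115, 115 and 168 CPM in WT DMSO libraries (log2 fold change 1.27, SE 0.22, adjusted p = 0.00412). Ndufc1, the gene with the shortest transcript of the set at 315 bases, had 590.4, 505 and 405 CPM in WT bortezomib and 176, 190.4 and 273 CPM in WT DMSO libraries (log2 fold change 1.23, SE 0.27, adjusted p = 0.00937). In both genes every bortezomib library lay above every DMSO library. Ndufc2, which pairs with Ndufc1 in the complex, had 611, 593 and 463 CPM in WT bortezomib and 256, 241 and 369 CPM in WT DMSO libraries (log2 fold change 0.94, SE 0.20, adjusted p = 0.00873). Ndufa3 had 508, 488 and 374 CPM in WT bortezomib and 201, 182 and 294 CPM in WT DMSO libraries (log2 fold change 1.02, SE 0.22, adjusted p = 0.00888). Ndufa1, an X-linked gene whose product is needed for assembly of the membrane arm, also rose (log2 fold change 0.97, SE 0.26, adjusted p = 0.0204), and so did Ndufa8 (log2 fold change 0.75, SE 0.20, adjusted p = 0.0201). Ndufa13 (log2 fold change 0.60, SE 0.22, adjusted p = 0.0767) and Ndufs5 (log2 fold change 0.68, SE 0.24, adjusted p = 0.062) missed the threshold. Ndufa10, a subunit with a nucleoside kinase fold, had 129, 142 and 103 CPM in WT bortezomib and 129, 123 and 124 CPM in WT DMSO libraries. Its groups overlapped and its log2 fold change was -0.01 (95% interval -0.36 to 0.34), an interval that leaves out the median of the 37 genes.

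The distal membrane arm held the largest change, that of Ndufb6, a small subunit with a single membrane helix. Ndufb6 had 372, 306 and 210.0 CPM in WT bortezomib libraries and 80.9, 80.3 and 141 CPM in WT DMSO libraries (log2 fold change 1.55, SE 0.31, adjusted p = 0.00653). Ndufb7, which lies in the intermembrane space and is held by disulfide bonds, had 338, 322 and 262 CPM in WT bortezomib and 130.5, 113 and 188 CPM in WT DMSO libraries (log2 fold change 1.098, SE 0.27, adjusted p = 0.015). In both, the lowest bortezomib library exceeded the highest DMSO library, WT DMSO 3. The other 8 rises ran from 0.77 for the X-linked Ndufb11 to 1.147 for Ndufb2. Ndufa4, outside complex I by present assignment, had 1804, 1738 and 1138 CPM in WT bortezomib and 609, 663 and 1032 CPM in WT DMSO libraries and rose likewise (log2 fold change 1.02, SE 0.28, adjusted p = 0.0246).

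The number of genes that rose moved with single libraries, as did the number of calls over all genes. Leaving out WT DMSO 1 gave 5 (5.8% of all genes changed in either direction), leaving out WT DMSO 2 gave 3 (4.32%), leaving out WT bortezomib 1 gave 3 (3.47%), and leaving out WT bortezomib 2 gave 18 (7.8%). The number was 20 with the Xist share as a covariate (10.1% of all genes changed in either direction). All 30 kept a positive log2 fold change under each of 15 alternatives, and Ndufab1, Ndufa11 and Ndufb6 kept their call under each. The HSC markers, whose summed level was lower in WT bortezomib than in WT DMSO libraries without overlap, moved with the rise, and so did the summed levels of 6 T and NK cell markers (136 to 199.7 CPM in WT bortezomib and 72.1 to 77.6 CPM in WT DMSO libraries) and of 7 erythroid markers (33.9 to 43.6 CPM in WT bortezomib and 22.9 to 28.1 CPM in WT DMSO libraries). The first sum was nearly all Nkg7. In the second, Epor had 20.4, 19.3 and 27.7 CPM in WT bortezomib and 12.8, 10.35 and 12.3 CPM in WT DMSO libraries, whereas Hba-a1 had 0.611, 0.594 and 0.248 CPM in WT bortezomib and 2.90, 1.99 and 2.67 CPM in WT DMSO libraries and Hbb-bs overlapped. Of the T and NK cell list, the defining Cd3e, Cd3g, Klrd1 and Gzma were at 0 in WT bortezomib libraries. The part of these markers in the rise was not tested.

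Bortezomib gave no such rise in KO HSCs. Of the 37 genes 0 changed by edgeR, 0 had an unadjusted p under 0.05 and 0 changed by the DESeq2 Wald test. By edgeR, 2.02% of all genes tested rose, 1.61% fell and 3.63% changed in either direction. An unadjusted p under 0.05 was met by 16.7% of all genes, and DESeq2 called 7.67%. In 0 of the 37 were the groups free of overlap in either direction, against 10.6% of all genes with bortezomib higher and 9.73% with bortezomib lower. The median log2 fold change was -0.14, against 0.00 for all genes, and the 95% intervals of all 37 genes ended below 1, the size of a 2-fold rise. Ndufb6 had 56.9, 65.7 and 116 CPM in KO bortezomib libraries and 73.6, 120.0 and 65.4 CPM in KO DMSO libraries (log2 fold change -0.12, SE 0.31, adjusted p = 0.917). Ndufab1 had 60.6, 60.1 and 80.4 CPM in KO bortezomib and 73.8, 103 and 57.6 CPM in KO DMSO libraries (log2 fold change -0.22, SE 0.21, adjusted p = 0.675). Both genes overlapped between groups. The smallest p belonged to Ndufs7, at 114, 108 and 169 CPM in KO bortezomib and 166, 186 and 149 CPM in KO DMSO libraries (log2 fold change -0.36, SE 0.17, adjusted p = 0.316). Next came Ndufs3, at 55.5, 55.8 and 79.7 CPM in KO bortezomib and 78.5, 79.9 and 72.1 CPM in KO DMSO libraries (log2 fold change -0.27, SE 0.16, adjusted p = 0.451). Ndufc1 had 116, 122 and 243 CPM in KO bortezomib and 187, 262 and 179.7 CPM in KO DMSO libraries (log2 fold change -0.38, SE 0.27, adjusted p = 0.535). In these 3 genes KO bortezomib 1 and 2 lay below every DMSO library and KO bortezomib 3 lay among them. Without KO bortezomib 3 the median was -0.44 and 4 genes fell (Ndufs7, Ndufc1, Ndufa13 and Ndufb7). In that fit 568 of all 16882 tested genes fell and 6.16% changed in either direction.

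**Figure D3:**
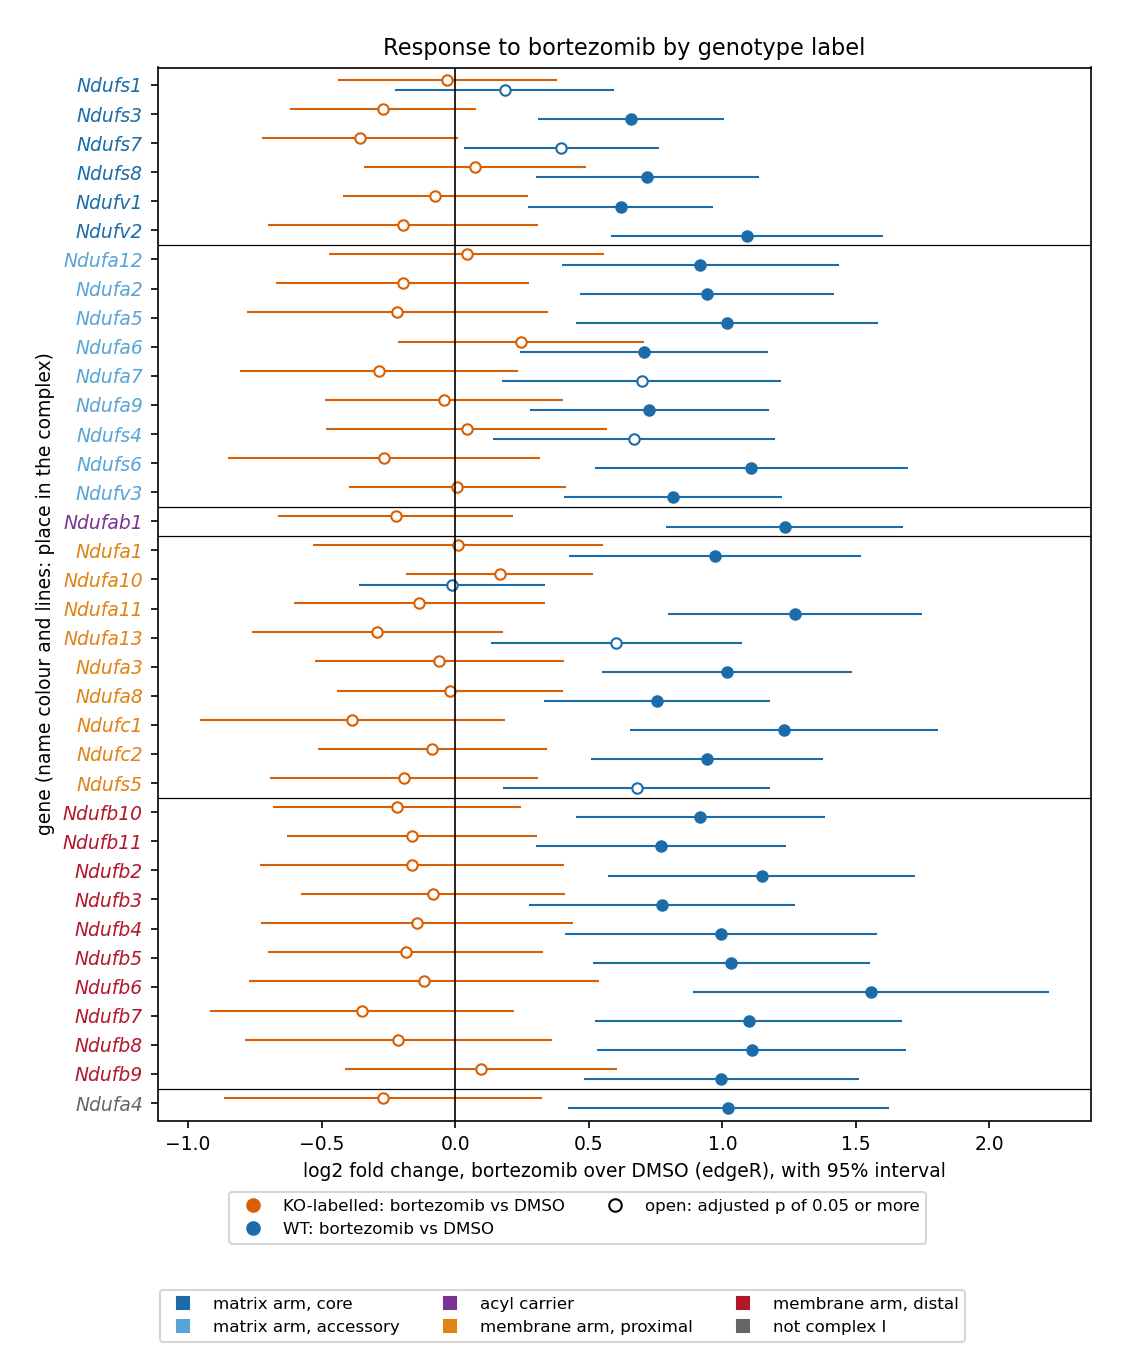
Log2 fold change of each of 36 genes, bortezomib over DMSO, with its 95% interval, in KO-labelled (orange) and WT (blue) libraries (n = 3 a group); filled points have an edgeR adjusted p under 0.05. The KO points lie between -0.38 and 0.25 with none filled, and the WT points between -0.01 and 1.55 with 29 filled.

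Under bortezomib, most Nduf genes were lower in KO than in WT HSCs. Of 37 genes 34 fell (33 of the 36 subunit genes, and Ndufa4) and 0 rose, where 15.3% of all genes tested fell, 17.2% rose and 32.4% changed in either direction. The median log2 fold change was -1.26, against 0.08 for all genes, and 34 genes did not overlap between groups, with KO lower, against 21.8% of all genes, and 0 with KO higher, against 22.3%. By place, 6 of 7 core subunits, 8 of 9 accessory subunits of the matrix arm, 8 of 9 of the proximal membrane arm, all 10 of the distal membrane arm, Ndufab1 and Ndufa4 fell. Ndufab1, with 60.6, 60.1 and 80.4 CPM in KO bortezomib and 200.5, 189.5 and 165 CPM in WT bortezomib libraries, again had the smallest p (log2 fold change -1.46, SE 0.21, adjusted p = 0.000231). Ndufa11 had 93.1, 95.2 and 149.6 CPM in KO bortezomib and 371, 328 and 262 CPM in WT bortezomib libraries (log2 fold change -1.51, SE 0.23, adjusted p = 0.000285). In both genes the highest KO library was KO bortezomib 3, and it still lay well below the lowest WT library. Ndufv2 had 198, 188 and 311 CPM in KO bortezomib and 767, 707 and 567 CPM in WT bortezomib libraries (log2 fold change -1.55, SE 0.24, adjusted p = 0.000356). Ndufb10, which like Ndufb7 faces the intermembrane space, had 100.2, 94.8 and 168 CPM in KO bortezomib and 343, 324 and 292 CPM in WT bortezomib libraries (log2 fold change -1.40, SE 0.22, adjusted p = 0.000392). Ndufs3 had 55.5, 55.8 and 79.7 CPM in KO bortezomib and 139, 122 and 127 CPM in WT bortezomib libraries (log2 fold change -1.02, SE 0.17, adjusted p = 0.000422). Largest of all was again Ndufb6 (log2 fold change -1.90, SE 0.32, adjusted p = 0.000526), and Ndufa4 fell by nearly as much (log2 fold change -1.70, SE 0.29, adjusted p = 0.00056).

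The 3 genes that did not fall were Ndufs1, at 117, 116 and 91.9 CPM in KO bortezomib and 148, 116 and 102 CPM in WT bortezomib libraries (log2 fold change -0.18, SE 0.19, adjusted p = 0.529), Ndufa10 and Ndufa6. Ndufa10 had 122, 142 and 127 CPM in KO bortezomib and 129, 142 and 103 CPM in WT bortezomib libraries (log2 fold change 0.07, SE 0.16, adjusted p = 0.799). For Ndufa6 the values were 145, 183 and 214 CPM in KO bortezomib and 254, 242 and 199 CPM in WT bortezomib libraries (log2 fold change -0.35, SE 0.22, adjusted p = 0.235). All 3 overlapped between groups. Between these groups the T and NK cell markers (40.9 to 110.9 CPM in KO bortezomib and 136 to 199.7 CPM in WT bortezomib libraries), 5 stromal markers (51.6 to 75.7 CPM in KO bortezomib and 16.6 to 28.7 CPM in WT bortezomib libraries; nearly all Pecam1) and the HSC markers also did not overlap, and their part in the falls was not tested. Each of the 34 falls held under every alternative run for this comparison, leaving out each library in turn included. The median moved to -0.96 with length and GC offsets and to -1.68 when WT DMSO 3, WT bortezomib 3 and KO bortezomib 3 were all left out.

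The difference between the responses of the genotypes was tested as an interaction, the log2 fold change of bortezomib over DMSO in KO minus that in WT. It was negative and past the threshold for 15 of 37 genes and positive for 0, where 4.71% of all genes tested were called negative, 4.35% positive and 9.05% either way. The median was -0.96, against 0.06 for all genes. Those 15 were Ndufv2 and Ndufs3 of the core, Ndufa2 and Ndufs6 of the accessory matrix arm, the acyl carrier Ndufab1, and in the membrane arm Ndufa11, Ndufc1, Ndufc2 and Ndufa3 (proximal) and Ndufb2, Ndufb5, Ndufb6, Ndufb7, Ndufb8 and Ndufb10 (distal). Ndufab1 had the smallest p, with a response of -0.22 in KO and 1.23 in WT HSCs (interaction log2 fold change -1.46, SE 0.29, adjusted p = 0.0111). Ndufa11 responded by -0.13 in KO and 1.27 in WT HSCs (interaction log2 fold change -1.41, SE 0.31, adjusted p = 0.0161), and Ndufc1 by -0.38 in KO and 1.23 in WT HSCs (interaction log2 fold change -1.62, SE 0.38, adjusted p = 0.0197). In all 3 the 95% interval of the KO response included 0. Ndufb6 had the largest interaction (log2 fold change -1.67, SE 0.44, adjusted p = 0.0293), and Ndufs3 (log2 fold change -0.93, SE 0.23, adjusted p = 0.0246), Ndufv2 (log2 fold change -1.29, SE 0.34, adjusted p = 0.0294), Ndufb7 (log2 fold change -1.45, SE 0.38, adjusted p = 0.0299) and Ndufb10 (log2 fold change -1.14, SE 0.31, adjusted p = 0.0348) followed by p. Ndufb7 had 70.4, 66.8 and 147 CPM in KO bortezomib and 123, 137 and 103 CPM in KO DMSO libraries. Ndufb10 had 100.2, 94.8 and 168 CPM in KO bortezomib and 123, 164 and 136 CPM in KO DMSO libraries, beside 343, 324 and 292 CPM in WT bortezomib and 147, 149 and 212 CPM in WT DMSO libraries. For both genes the KO groups overlapped and the WT groups did not.

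Interaction calls moved with the libraries left out and with the Xist share as a covariate, as did calls over all genes. With the Xist share as a covariate 0 of the 37 and 1.71% of all genes were called (median -0.70). In that fit 19 of the 37 had an unadjusted p under 0.05, against 19.6% of all genes. The count of calls was 1 when WT DMSO 2, WT bortezomib 1 or KO DMSO 2 was left out. It was 2 when WT DMSO 1 or KO bortezomib 2 was, and 3 when WT bortezomib 2, KO DMSO 1 or KO bortezomib 1 was. In these 8 fits 2.07% to 4.52% of all genes were called. The count was 25 with WT DMSO 3 left out (9.94% of all genes) and 32 with KO bortezomib 3 left out (16.7%). It was 34 with both of these and WT bortezomib 3 left out (24.5%). All 15 kept a negative sign throughout, and 0 of the 15 were called under every alternative.

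KO DMSO against WT DMSO libraries showed how the genotypes differed without proteasome inhibition. None of the 37 genes changed (0 by edgeR, 0 at an unadjusted p under 0.05, 0 by DESeq2). Of all genes tested, edgeR called 0%, 9% had an unadjusted p under 0.05 and DESeq2 called 0.972%. Groups did not overlap, with KO lower, for 1 of 37 (Ndufs3), against 8.63% of all genes, and with KO higher for 0, against 9.39%. The median was -0.17, against 0.00 for all genes, and log2 fold changes ran from -0.45 to 0.11. Smallest by p was Ndufb9, one of the subunits that dock the acyl carrier, with 275, 355 and 278 CPM in KO DMSO and 325, 329.7 and 567 CPM in WT DMSO libraries (log2 fold change -0.43, SE 0.24, adjusted p = 0.61). Ndufs4 had 108, 146 and 119 CPM in KO DMSO and 139, 128 and 231 CPM in WT DMSO libraries (log2 fold change -0.42, SE 0.25, adjusted p = 0.63). Ndufa12 had 98.2, 124 and 80.0 CPM in KO DMSO and 117, 115 and 165 CPM in WT DMSO libraries (log2 fold change -0.40, SE 0.24, adjusted p = 0.645). WT DMSO 3 was the highest library in all 3, and without it the median was -0.01. With the Xist share as a covariate the median was -0.65. In that fit 20 genes had an unadjusted p under 0.05, against 12.2% of all genes, and 0 were called, against 0.0124%. The Xist share did not overlap between these groups.

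Short transcripts were examined because 25 of the 38 genes have a transcript under 1000 bases (median 812, range 315 to 2590). In WT bortezomib over WT DMSO, shorter genes tended to be higher genome-wide: Spearman's rho of log2 fold change on length was -0.52 over the 37 and -0.28 over 13076 protein-coding genes. The 17 Nduf genes under 750 bases had a median log2 fold change of 1.02, against 0.63 for all genes of that length, of which 29.6% rose. From 750 to under 1000 bases the median was 0.77 for 7 Nduf genes and 0.40 for all genes, from 1000 to under 1500 bases it was 0.82 for 6 Nduf genes and 0.28 for all genes. From 1500 to under 2500 bases it was 0.64 for 6 Nduf genes and 0.03 for all genes. Within their own length bin 35 of the 37 genes thus lay above the median of all genes, the exceptions being Ndufa10 and Ndufs7. Ndufab1 and Ndufv2, with transcripts of 1416 and 1697 bases, rose as much as the short genes, whereas Ndufs1, the longest at 2590 bases, and Ndufa10, at 2020 bases, did not.

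When length and GC offsets were fitted for each library, 31 genes rose in WT bortezomib over WT DMSO with a median of 0.70, against 0.07 for all genes. Of all 16091 genes in that fit, 1867 rose and 17.5% changed in either direction. Medians by place were then 0.85 in the distal membrane arm, 0.62 in the proximal membrane arm, 0.70 in the accessory matrix arm and 0.54 in the core. Between KO bortezomib and WT bortezomib the trend ran the other way (rho 0.53 over the 37 and 0.34 over all genes), and the 17 Nduf genes under 750 bases had a median of -1.40, against -0.86 for all genes of that length. Here 35 of 37 lay below the median of their bin, all but Ndufa6 and Ndufa10. With the offsets 34 still fell, where 31.1% of all genes changed in either direction. Interaction calls numbered 27 with the offsets (13.4% of all genes), at a median of -0.84. A correlation over genes has no replicate error, since all points share the same libraries.

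**Figure D4:**
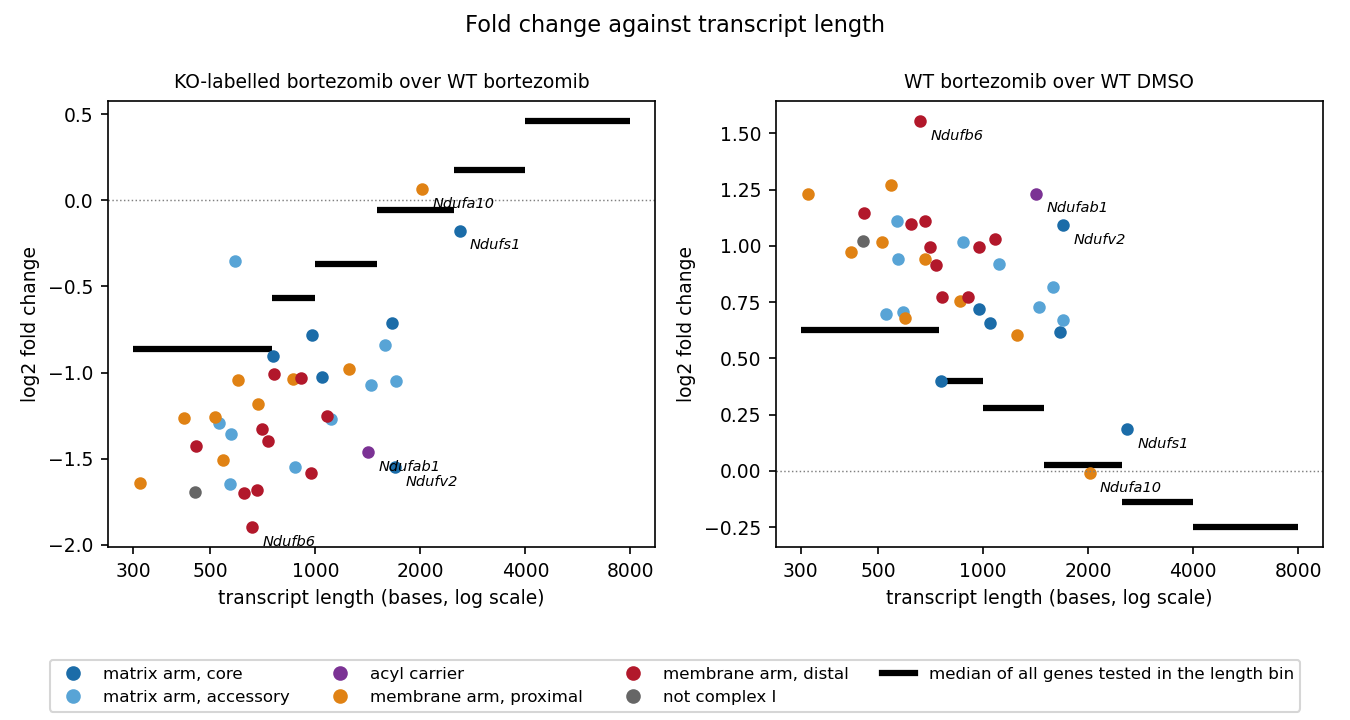
Log2 fold change of 36 genes against transcript length (bases, log scale) for KO-labelled bortezomib over WT bortezomib (left) and WT bortezomib over WT DMSO (right); black bars are medians of all tested genes in each length bin, and the last bin is open-ended. Bars rise with length on the left (-0.86 to 0.46) and fall on the right (0.63 to -0.25), and 34 of the 36 points lie beyond their bar in the direction of the comparison's median in each panel.

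The reporter groups differed less. None of the 37 genes was called in any of the 3 comparisons by edgeR or DESeq2. By edgeR, 0% of all genes were called in single against double positive and in single positive against double negative HSCs. The share was 0.0065% in double positive against double negative HSCs. In this order of comparisons, DESeq2 called 0.013%, 0.124% and 0.306% of all genes. At an unadjusted p under 0.05 the counts were 0, 15 and 9 in the same order, against 1.36%, 7.54% and 8.55% of all genes. The 15 became 1 without single positive 2 (3.71% of all genes) and 5 without single positive 3 (4.45%). They became 6 without double negative 1 (5.84%), 8 without double negative 2 (6.23%) and 26 without double negative 3. The 9 became 0 without double positive 3 (6.39%), 4 without double negative 1 (7.91%), 3 without double negative 2 (6.53%) and 23 without double negative 3. Without double negative 3 the share of all genes was 17.1% in both comparisons. Summed levels were 8614, 6591 and 7569 CPM in RFP single positive, 8590, 8695 and 6318 CPM in RFP GFP double positive and 11460, 10340 and 8160 CPM in double negative libraries. Each RFP-expressing group overlapped the double negative group through double negative 3, and the medians against it were -0.42 in single positive and -0.36 in double positive HSCs, while single against double positive HSCs gave -0.06. Ndufb4 had 81.1, 58.8 and 68.0 CPM in single positive, 87.7, 93.4 and 56.4 CPM in double positive and 134, 137 and 96.7 CPM in double negative libraries (single positive over double negative log2 fold change -0.83, SE 0.24, adjusted p = 0.651). Ndufb7 had 194, 149.8 and 170.3 CPM in single positive, 186, 179 and 132 CPM in double positive and 264, 246 and 220.5 CPM in double negative libraries (double positive over double negative log2 fold change -0.56, SE 0.19, adjusted p = 0.555). Neither RFP-expressing group overlapped the double negative group in these 2 genes. Libraries were separated in this way, with the RFP-expressing group lower, for 9 of 37 genes in single positive HSCs (5.52% of all genes) and 7 in double positive HSCs (4.94%), and with that group higher for 0 in both, against 7.64% and 6.28% of all genes.

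Also low in p was Ndufc1, with 251, 192 and 236 CPM in single positive, 229, 294 and 186 CPM in double positive and 393, 374 and 268 CPM in double negative libraries (single positive over double negative log2 fold change -0.61, SE 0.22, adjusted p = 0.651). For Ndufb2 the values were 152, 106 and 122 CPM in single positive, 138, 134 and 93.9 CPM in double positive and 197, 185 and 166 CPM in double negative libraries (double positive over double negative log2 fold change -0.58, SE 0.20, adjusted p = 0.555). Between single and double positive HSCs the smallest p was that of Ndufs1, with 118, 129.8 and 109 CPM in single positive and 73.2, 92.3 and 103 CPM in double positive libraries (log2 fold change 0.41, SE 0.19, adjusted p = 1). Its groups did not overlap, with single positive higher, the 1 gene of 37 to do so, against 3.84% of all genes, and 0 did so with single positive lower, against 3.51%. Next by p, Ndufv3 had 119.7, 117 and 131 CPM in single positive and 152, 159 and 123 CPM in double positive libraries (log2 fold change -0.24, SE 0.17, adjusted p = 1). Ndufa6 had 249, 162 and 182 CPM in single positive and 258, 282 and 177 CPM in double positive libraries (log2 fold change -0.27, SE 0.23, adjusted p = 1). Here too the fold changes ran with length: rho over the 37 was 0.58 for single positive and 0.63 for double positive against double negative HSCs, beside 0.40 and 0.31 over 12653 genes, and with length and GC offsets the medians were -0.24 and -0.27, against -0.12 and -0.07 for all genes. The T and NK cell markers summed to 59.0 to 122 CPM in single positive, 55.5 to 84.2 CPM in double positive and 123 to 191 CPM in double negative libraries, and nearly all of that was Nkg7. Single positive and double negative libraries also did not overlap in 6 B cell markers (70.2 to 82.8 CPM in single positive and 86.2 to 106.8 CPM in double negative libraries; Ebf1 and Pax5 at 0 in both) and 7 erythroid markers (23.5 to 37.3 CPM in single positive and 38.8 to 46.2 CPM in double negative libraries). Cd48 had 1.86, 8.20 and 15.9 CPM in single positive and 8.17, 10.3 and 12.5 CPM in double positive libraries. In double negative libraries it had 21.1, 54.1 and 17.7 CPM, above all others. The part of these markers in the differences was not tested. These comparisons share the double negative libraries. Their fit had no term for the replicate number, which the Xist share followed across the reporter groups.

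Other genes of the pathway were read from lists of assembly factors, mitochondrially encoded subunits and regulators. Of 16 assembly factors, 6 rose and 0 fell in WT bortezomib over WT DMSO (median 0.59), where 7.97% of all genes rose and 7.56% fell. Ndufaf6, an early assembly factor, had 72.6 ± 10.4 CPM in WT bortezomib and 25.6 ± 10.5 CPM in WT DMSO libraries (log2 fold change 1.499, SE 0.25, adjusted p = 0.00354). Ndufaf4 had 135 ± 15.9 CPM in WT bortezomib and 47.0 ± 2.84 CPM in WT DMSO libraries (log2 fold change 1.52, SE 0.27, adjusted p = 0.00412). Ndufaf7, a methyltransferase (log2 fold change 0.71, SE 0.18, adjusted p = 0.0155), and Ndufaf2 (log2 fold change 1.11, SE 0.28, adjusted p = 0.0166) rose as well. In KO HSCs 0 of the 16 changed with bortezomib (median 0.04), and 0 had an unadjusted p under 0.05, against 16.7% of all genes. Between KO and WT bortezomib 8 fell and 0 rose (median -0.59), where 15.3% of all genes fell. The interaction, negative for 4.71% of all genes, was negative for Ndufaf6 (log2 fold change -1.40, SE 0.35, adjusted p = 0.0249) and Ndufaf2 (log2 fold change -1.55, SE 0.39, adjusted p = 0.0263).

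Mitochondrially encoded subunits, which form the membrane pumps, did not follow the nuclear ones. Of 7, 0 rose and 3 fell in WT bortezomib over WT DMSO (median -0.37), where 7.97% of all genes rose and 7.56% fell. The pump subunit mt-Nd5 had 270.3 ± 50.5 CPM in WT bortezomib and 542 ± 74.2 CPM in WT DMSO libraries (log2 fold change -1.004, SE 0.18, adjusted p = 0.00412). mt-Nd6 had 108 ± 25.5 CPM in WT bortezomib and 235 ± 40.7 CPM in WT DMSO libraries (log2 fold change -1.12, SE 0.20, adjusted p = 0.00405). mt-Nd4 had 305 ± 78.6 CPM in WT bortezomib and 509 ± 93.9 CPM in WT DMSO libraries (log2 fold change -0.74, SE 0.23, adjusted p = 0.0392). In KO HSCs 0 of 7 changed with bortezomib (median -0.16), and 0 had an unadjusted p under 0.05, against 16.7% of all genes. There mt-Nd5 had 584 ± 92.8 CPM in KO bortezomib and 616 ± 64.0 CPM in KO DMSO libraries. Under bortezomib the same 3 genes, against 17.2% of all genes, were higher in KO than in WT HSCs, mt-Nd5 by 1.11, mt-Nd6 by 1.23 and mt-Nd4 by 0.79 on the log2 scale. The interaction, positive for 4.35% of all genes, was positive for mt-Nd5 (log2 fold change 0.93, SE 0.25, adjusted p = 0.0344) and mt-Nd6 (log2 fold change 1.06, SE 0.27, adjusted p = 0.0279). mt-Nd6 lies on the other strand than most mitochondrial genes, and the strand setting of the counting is not given in the sources used here.

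Of 10 regulators of respiratory genes, 2 rose and 1 fell in WT bortezomib over WT DMSO, shares of a small list to be read against 7.97% and 7.56% of all genes. Those that rose were Esrra, a nuclear receptor that binds promoters of respiratory genes (log2 fold change 1.07, SE 0.27, adjusted p = 0.0172), and the coactivator Pprc1 (log2 fold change 0.76, SE 0.23, adjusted p = 0.0373). Ppargc1a, the coactivator best known for raising mitochondrial content, had 0.806 ± 0.347 CPM in WT bortezomib and 4.09 ± 1.25 CPM in WT DMSO libraries and fell (log2 fold change -2.34, SE 0.60, adjusted p = 0.0181). In KO HSCs 0 of the 10 were called with bortezomib, and 2 had an unadjusted p under 0.05, against 16.7% of all genes. Ppargc1a had 1.27 ± 0.553 CPM in KO bortezomib and 4.60 ± 2.41 CPM in KO DMSO libraries (log2 fold change -1.85, SE 0.59, adjusted p = 0.101). Nrf1, whose motif stands in some of the promoters above, had a log2 fold change of 0.23 in KO and 0.14 in WT HSCs, neither past the threshold. Under bortezomib Tfam, which packages mitochondrial DNA and is needed for its transcription (log2 fold change -0.72, SE 0.16, adjusted p = 0.00363), and Pprc1 (log2 fold change -0.66, SE 0.23, adjusted p = 0.0401) were lower in KO than in WT HSCs, 2 of the 10, where 15.3% of all genes were lower.

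Some counts may hold reads of other genes. Of the 38, 12 have a stretch of at least 150 bases at 95% identity or more in another annotated gene, mostly processed pseudogenes: Ndufab1 matches Ndufab1-ps at 99.4% over 469 bases and Gm4459 at 99.8% over 468 bases, and Ndufs3 matches Gm12251 at 98.6% over 792 bases. How the authors treated reads with several matches is not given, so values of Ndufab1, Ndufs3, Ndufs5, Ndufs6, Ndufb3, Ndufb4, Ndufb11 and Ndufa12 are uncertain to that extent. Exons of 17 of the 38 overlap another gene, 15 of them on the opposite strand (Ndufb6 with Smim27, Ndufa11 with Vmac, Ndufs6 with Mrpl36), where reads cannot be told apart without strand. Ndufc1, Ndufc2, Ndufv2, Ndufb7 and Ndufb10, all called in each of the 3 comparisons that had calls, had neither a near-identical copy nor an overlapping gene.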

How the data were processed

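The authors deposited a single table of raw counts per gene for the 21 libraries, whole numbers with no normalization; 0 columns lacked a sample. Per the labels' protocols, RNA was extracted with an RNeasy Plus Micro kit and libraries followed SMART-seq2, which has no molecular identifiers, so the floor of 3 counts covers counting error only. Per the submitters' processing notes, Bowtie 1.0.0, STAR 2.6.1 and HTSeq 0.7.1 were used and the builds GRCm38.p4 and GRCh38 are named with no role. The sources used here do not give the annotation release, the strand setting or the handling of multiply matching reads.

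Counts were tested in R 4.3.3 with edgeR 4.0.16: filterByExpr left 16149 genes (12 treatment libraries) and 15375 genes (9 reporter libraries), libraries were scaled by TMM, and 1 quasi-likelihood fit per experiment with a mean per group gave the 8 comparisons. P-values were adjusted by Benjamini-Hochberg over all genes of a comparison, and a gene was called, and is said to rise or fall, at an adjusted p under 0.05. CPM use TMM-scaled library sizes. Intervals are 95% intervals of the fitted log2 fold change between libraries.

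Transcript lengths and GC content are from GENCODE M21 (GRCm38), using the best-ranked principal transcript; 99.64% of tested genes had a length. Length and GC offsets came from splines with 4 degrees of freedom of log2 CPM (prior count 2). Near-identical copies were searched with blastn. Alternatives were relative log expression scaling, the DESeq2 1.42.0 Wald test, no low-count filter, a fit of only the groups compared, a block for the replicate number, length and GC offsets, length offsets, a covariate for the percent of Xist among Xist and Ddx3y counts, and leaving out each library, the 3 libraries that stood apart (WT DMSO 3, WT bortezomib 3 and KO bortezomib 3) together, or Ndufa4 with Ndufa4l2. All 21 libraries entered the values reported, and none was a duplicate of another in its group.

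Values in every library are given for the core subunits, per comparison for up to 5 called genes of smallest p in each direction (3 where none was called), for up to 8 genes called in the interaction, and for Ndufa4; Ndufs6 and Ndufa10 were chosen after their values were seen. A gene that enters the counts, sums and medians is not reported here by itself or drawn. The genes, lists and rules were chosen with earlier results of these data known. The tests were checked on simulated data of the same design. Figures were drawn with Python 3.11.15 and matplotlib 3.10.9.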

Additional observations from a re-analysis of the deposited data

Results flagged for a closer look

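The effect of bortezomib differed between KO-labelled and WT HSCs for 15 of 36 complex I subunit genes, by the edgeR interaction test of the difference itself. All 15 were negative, where 4.71% of all genes tested were called negative and 9.05% either way. By increasing p, the log2 interactions (response in KO minus response in WT) were Ndufab1 (-1.46), Ndufa11 (-1.41), Ndufc1 (-1.62), Ndufs3 (-0.93), Ndufv2 (-1.29), Ndufb6 (-1.67), Ndufb7 (-1.45), Ndufb10 (-1.14), Ndufa2 (-1.14), Ndufc2 (-1.03), Ndufb5 (-1.22), Ndufs6 (-1.38), Ndufa3 (-1.08), Ndufb8 (-1.32) and Ndufb2 (-1.31). In all 15 the KO response was not called and the WT response was called higher. Of the 15, 0 were called under every alternative. Leaving out 1 library at a time gave 1 to 32 calls (2.07% to 16.7% of all genes). Beside these values, Xist as a percent of the counts of Xist and Ddx3y was at most 0.987% in KO DMSO and at least 31.8% in both WT groups. Its part in the result was not tested beyond the fit with that share as a covariate. In that fit 0 of the 37 Nduf genes and 1.71% of all genes were called. Groups of 3 libraries are too small for Dixon's ratio, which was not computed.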

How the results depend on the processing

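Leaving out 1 library at a time gave 3 to 31 genes called in WT bortezomib over WT DMSO (3.47% to 16.4% of all genes). It gave 0 to 4 in KO bortezomib over KO DMSO (1.07% to 6.16%, median -0.44 to -0.022). In KO over WT bortezomib 34 were called throughout (21.1% to 35.5%, median -1.54 to -1.10). Interaction calls were then 1 to 32 (2.07% to 16.7%, median -1.30 to -0.84). They were 24 by DESeq2 (15.1%), 26 with no filter (9.28%), 27 with length and GC offsets (13.4%) and 26 with length offsets (12.5%). With the Xist covariate they were 0 (1.71%, median -0.70), and the cause was not tested. With WT DMSO 3, WT bortezomib 3 and KO bortezomib 3 all left out, interaction calls were 34 (24.5%, median -1.63). In that fit 11 genes fell in KO bortezomib over KO DMSO (median -0.44), where 11.6% of all genes changed in either direction. The WT median was 1.23 and that of KO over WT bortezomib -1.68. Medians of KO over WT bortezomib were -0.96 with length and GC offsets and -0.98 with length offsets, and that of KO over WT DMSO was -0.65 with the Xist covariate. Libraries with the same replicate number had correlations of deviations from group means of -0.03 to 0.20, 6 of 27 over 0.1. In the reporter experiment the Xist share followed the replicate number. In single positive, double positive and double negative HSCs it was 0%, 0% and 10.2% in replicate 1. It was 99.9%, 97.4% and 88.1% in replicate 2, and 5.45%, 0.782% and 0% in replicate 3. Whether these libraries were paired is not given in the sources used here, and the main fit took them as unpaired. With the replicate number as a block, interaction calls were 23 (11.7% of all genes). At an unadjusted p under 0.05 the reporter counts against double negative HSCs were 23 for single and 17 for double positive HSCs (15 and 9 without the block). Over all genes these shares were 12.9% and 13%. No other count of calls moved by over 1.5 times. Relative log expression size factors, only the groups compared and leaving out Ndufa4 left every count of calls within 1.5 times. All 30, 34 and 15 calls of Nduf genes in the 3 comparisons with calls kept their sign under every alternative run for their comparison. Over those genes and alternatives the call was lost in 106 of 450 values in WT bortezomib over WT DMSO, in 0 of 510 in KO over WT bortezomib and in 123 of 300 in the interaction. With 3 libraries a group, a missed threshold does not show that levels were alike.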
